A study of Homo sapiens with 16 samples.

Results

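The regions described here were 656 downstream-of-gene transcripts (DoGs) of HEK293 cells that the deposited region lists held reproducibly in only one of 4 RNA preparations. A gene was a member when its readthrough region was listed in both replicates of the SERIPH 2nd-step fraction under DoG-inducing conditions, in at most 1 replicate each of hiAGPC, conventional extraction and the SERIPH 1st-step fraction under those conditions, and in none of the 8 control libraries, and when it had a row in the deposited FPKM table. The members were thus selected on measured values, and the differences that chose them, those of the stressed 2nd step from the other preparations and from control cells, are given below as descriptions, without a test. They made up 656 of 3139 DoGs with FPKM values and of the 2031 genes listed in both 2nd-step replicates under DoG-inducing conditions.

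HEK293 is an established human embryonic kidney cell line, and every library came from wild-type cells of this line. DoG-inducing conditions were 200 mM sorbitol, which exposes cells to osmotic stress, together with 100 µg/mL of the translation inhibitor cycloheximide for 9 h; control cells were untreated. From each condition RNA was prepared in 4 ways with 2 biological replicates each, which gave 16 libraries in 8 groups. Conventional extraction is acid guanidinium thiocyanate-phenol-chloroform (AGPC) extraction of the aqueous phase, hiAGPC adds heating so that hard-to-extract RNA enters the same extract, the SERIPH 1st-step fraction is the aqueous phase of a conventional extraction, and the SERIPH 2nd-step fraction is the RNA then released by heat-assisted extraction of the interphase left behind.

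DoGs arise when RNA polymerase II fails to terminate past the polyadenylation site of a gene and continues into the DNA beyond, and osmotic stress is a known inducer of them. Cleavage at the polyadenylation site normally exposes a free 5′ end behind the polymerase, from which an exonuclease degrades the nascent RNA and helps to release the enzyme. DoGs stay in the nucleus, and many are semi-extractable, meaning that conventional AGPC leaves much of the RNA in the protein-rich interphase. When the aqueous phase is removed first, most ordinary mRNA goes with it, and the interphase is then extracted on its own.

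Of the 656 genes, 653 were found in GENCODE v44 on GRCh38, 589 as protein-coding genes and 64 as lncRNA genes. The first 100 bases past the gene end are shown for 4 members, from GRCh38 and 5′ to 3′ on the strand of the gene. ARID1B is the member that the study itself shows as an example, ABCB6 had the highest 2nd-step level, RAB1A the longest region, and TNK2 one of the widest differences between hiAGPC and conventional extraction. Capitals mark TGTGT, a GU-rich element of the kind bound by a cleavage factor downstream of polyadenylation sites.
ARID1B: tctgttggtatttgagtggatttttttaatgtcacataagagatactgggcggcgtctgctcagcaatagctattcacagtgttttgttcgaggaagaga
ABCB6: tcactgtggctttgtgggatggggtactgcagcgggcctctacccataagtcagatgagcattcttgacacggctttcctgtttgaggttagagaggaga
RAB1A: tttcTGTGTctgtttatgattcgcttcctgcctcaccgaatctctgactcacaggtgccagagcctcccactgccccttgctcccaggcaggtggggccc
TNK2: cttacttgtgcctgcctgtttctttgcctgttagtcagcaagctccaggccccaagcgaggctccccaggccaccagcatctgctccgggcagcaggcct

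These stretches lie at chr6:157210780-157210879 on the plus strand for ARID1B, and on the minus strand at chr2:219209666-219209765 for ABCB6, chr2:65070596-65070695 for RAB1A and chr3:195863264-195863363 for TNK2. On the strand of the gene, TGTGT was present in the first 100 bases of 24.9% of the members, 23.1% of the 1057 DoGs reproducible in both hiAGPC and the 2nd-step fraction and 22.2% of all 3135 listed DoGs with FPKM values. On the opposite strand these letters occurred in 8.23% of the members and 9.54% of all. The polyadenylation signals AATAAA or ATTAAA occurred in the last 50 bases before the gene end in 65.2% of the members and 65.7% of all, and on the opposite strand in 10.8% and 11.4%. By these letters the gene ends of the members were close to those of all DoGs. No signal of this kind was found in the window of ARID1B or RAB1A, whereas in ABCB6 and TNK2 it began 25 and 27 bases before the gene end.

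A further property of the sequence that the rule did not use was base composition. The median G+C content of the first 10 kb past the gene end was 50.1% over the members, against 45.6% over the DoGs reproducible also in hiAGPC, 47.1% over 502 genes listed in only 1 replicate of the 2nd-step fraction that met the rest of the rule, and 46.1% over all. Among regions of at most 20 kb it was 49.5% for 405 members and 45.0% for 271 DoGs reproducible also in hiAGPC, and among longer regions 51.4% for 251 and 45.9% for 786. The members were thus richer in G+C at both short and long lengths, although no test was made of this difference between classes. Chromosomes 16, 17, 19 and 22 held 7.16%, 10.5%, 8.23% and 5.03% of the members, against 4.75%, 7.78%, 5.90% and 2.58% of all DoGs.

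**Figure D1:**
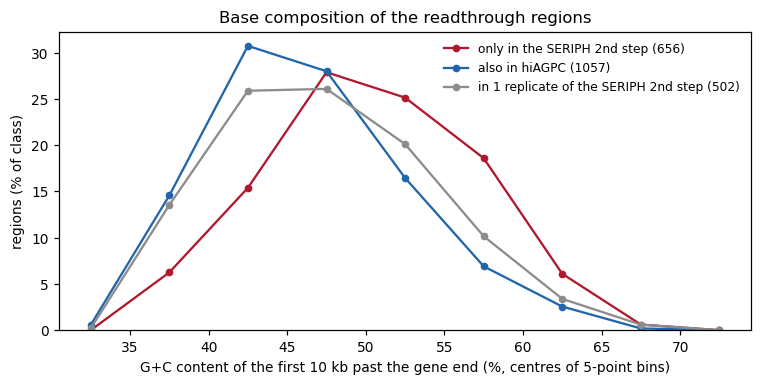
The horizontal axis gives the G+C content (%) of the first 10 kb past the gene end in bins of 5 percentage points, and the vertical axis the share of each class of regions (%). The curve of the 656 members lies to the right of both other curves, with a median of 50.1% against 45.6% for the DoGs reproducible also in hiAGPC.

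The genes themselves differed little from the other DoG-producing genes in size. The median gene length was 26.0 kb for the members, 29.0 kb for DoGs reproducible also in hiAGPC and 31.9 kb for all DoG-producing genes, and the largest annotated transcript had a median of 9 exons in each of these 3 groups. The next annotated gene on the same strand began at a median of 38.2 kb past the gene end, against 38.5 kb and 38.9 kb. lncRNA genes made up 9.76% of the members and 8.23% of all DoG-producing genes. Among 30 members named as antisense lncRNAs were MMEL1-AS1, KCNQ1-AS1 and EP300-AS1.

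The listed regions of the members were short. The median length in the 2nd-step fraction was 20.0 kb in replicate 1 and 25.0 kb in replicate 2, against 55.0 and 65.0 kb for the DoGs reproducible also in hiAGPC. In 106 members both regions had the shortest length in the lists, 10 kb. Both replicates gave the same length in 297 members, replicate 2 the longer one in 236 and replicate 1 in the rest, and in 139 members the longer region was at least 2 times the shorter. Region lengths move in windows of 5 kb, so equal lengths are equal only to that step. In 21 members the shorter of the 2 regions still reached at least 100 kb.

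**Figure D2:**
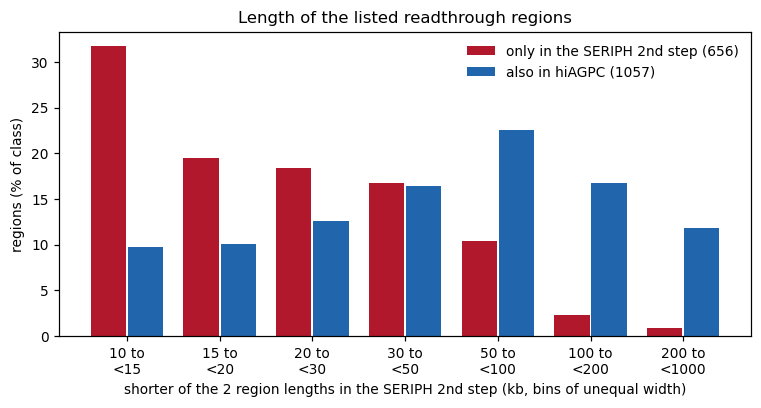
Bars give the share of each class (%) whose shorter region in the 2 replicates of the SERIPH 2nd-step fraction, under DoG-inducing conditions, falls in each length bin (kb). The shortest bin holds 31.7% of the 656 members and 9.75% of the 1057 DoGs reproducible also in hiAGPC.

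The longest member was the DoG of RAB1A, a GTPase of transport from the endoplasmic reticulum to the Golgi. Its region covered 315 kb in both replicates, chr2:64755696-65070695 on the minus strand, and 40.0 kb in the single hiAGPC replicate that listed it. The next longest by the shorter replicate were DOLPP1 (271.1 kb in both), an enzyme of dolichol recycling, PLA2G4B (261.1 and 266.1 kb), a cytosolic phospholipase A2, EIF3B (250 kb in both), a subunit of a translation initiation factor, and ATRX (250 and 260 kb), a chromatin remodeller. NDUFV1, a subunit of respiratory complex I, followed with 215 and 345 kb, then TENT4A, a non-canonical poly(A) polymerase, with 170 and 210 kb, and OTUB1, a deubiquitinating enzyme, with 167.4 and 170 kb. In DOLPP1 and ATRX, hiAGPC listed 20.0 and 25.0 kb in 1 replicate. These long members were thus listed over far shorter stretches in the single hiAGPC replicate that held them, while NDUFV1, TENT4A and OTUB1 were listed in no hiAGPC replicate. At their longest, the regions of DOLPP1, EIF3B and OTUB1 overlap further coding genes on the same strand. That of PLA2G4B overlaps JMJD7-PLA2G4B, a joint locus with PLA2G4B itself.

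A region overlapped another annotated gene on the same strand in 144 members (22.0%, by the shorter region), against 49.1% of the longer DoGs reproducible also in hiAGPC. No member's listed region overlapped that of another listed gene on the same strand. In 6 members, RUNX3, EPB41, FRMD3, PDZK1, RBM20 and CDK5R2-AS1, at least 50% of the gene itself lay inside the listed region of an upstream gene in both replicates. For RBM20, a regulator of splicing in muscle, that share was 72.6% and the upstream gene was SMC3, and for CDK5R2-AS1 it was 100% with FEV upstream. In these 6 members transcription from the gene and readthrough into it cannot be told apart.

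FPKM values counted fragments per length of region, scaled to the sequencing depth of the library, and in the deposited table each DoG had 1 region for all libraries, the longest listed for it. Under control conditions the median over the 656 members was 0.03 FPKM in every conventional, 1st-step and hiAGPC library, and 0.045 and 0.05 FPKM in the 2nd-step libraries. Under DoG-inducing conditions it was 0.10 and 0.09 FPKM in the conventional libraries, 0.10 and 0.10 in the 1st step, 0.49 and 0.48 in hiAGPC, and 0.84 and 0.82 in the 2nd step. The replicates thus lay much closer to each other than the preparations did, except that conventional extraction and the 1st step could not be separated by their medians. In bulk RNA, more cells with a readthrough transcript and more transcript per cell cannot be told apart. In 1st-step replicate 1 under DoG-inducing conditions 29 members were listed at 0, against 0 to 2 in the other 7 libraries of this condition. The depth of each library is unknown because the deposited values hold no counts.

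**Figure D3:**
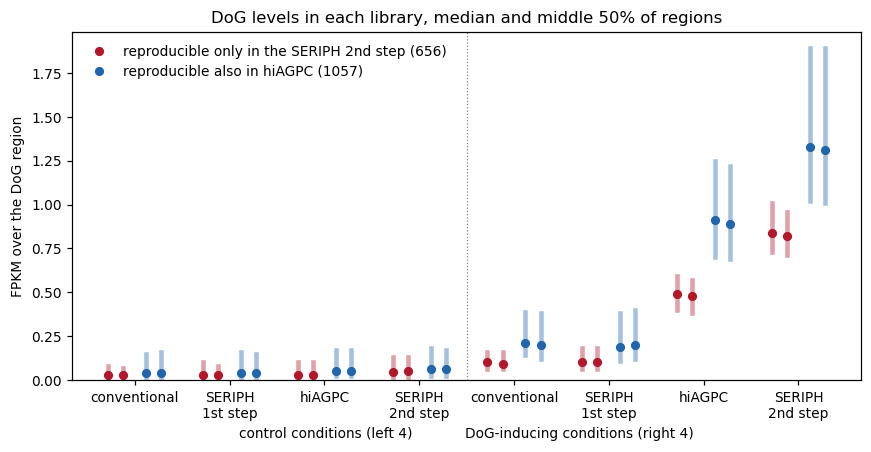
Points give the median FPKM over the regions in each of the 16 libraries and vertical bars the middle 50% of regions, with 2 replicates side by side per preparation. For the 656 members hiAGPC medians of 0.49 and 0.48 FPKM and 2nd-step medians of 0.84 and 0.82 FPKM stand above all other libraries, and in both preparations lie below those of the 1057 DoGs reproducible also in hiAGPC.

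By the quantities that chose them, the members were intermediate in level. Their median of the mean 2nd-step level was 0.83 FPKM, against 1.32 FPKM for DoGs reproducible also in hiAGPC and 0.62 FPKM for the genes listed in 1 replicate of the 2nd step. In hiAGPC the corresponding medians were 0.48, 0.90 and 0.385 FPKM, and 32 members (4.88%) had a hiAGPC level at or above the median of the DoGs reproducible there. The 2nd-step level exceeded both hiAGPC replicates in both replicates of 631 members (96.2%), which compares with 964 of the 1057 (91.2%) reproducible also in hiAGPC and 79.3% of all DoGs. The median difference between these preparations was 0.75 on the log2(FPKM + 0.1) scale, against 0.55 and 0.52. These values helped to choose the members, so nothing is read from them.

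Being absent from the hiAGPC lists therefore did not mean absence of signal there. No member was listed at 0 in either hiAGPC library, and the lowest values were 0.19 and 0.15 FPKM. Of the members, 202 were listed in 1 hiAGPC replicate and 454 in none, 7 in 1 replicate of the 1st step and 0 in a conventional library. The members listed once had a median hiAGPC level of 0.575 FPKM and a median 2nd-step level of 0.915 FPKM, and those never listed 0.43 and 0.805 FPKM. Where hiAGPC listed a region once, the shorter 2nd-step region was longer in 106 members, equal in 78 and shorter in 18.

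The values near the edge of the rule overlapped. The 3 members with the lowest 2nd-step means were ARL2BP, NUF2 and SFTPD-AS1, at 0.54 and 0.56, 0.48 and 0.59, and 0.50 and 0.55 FPKM. Just outside, VPS18, RAPSN and AMN were listed in only 1 of the 2 replicates although they reached 1.64 and 1.52, 1.58 and 1.51, and 1.57 and 1.35 FPKM. Membership rested on the region lists and was thus not a threshold on FPKM.

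ABCB6, a transporter of the ATP-binding cassette family, had the highest level of all members. Its DoG, chr2:219174766-219209765 on the minus strand, reached 2.83 and 2.53 FPKM in the 2nd step, 1.80 and 1.86 in hiAGPC, 0.73 and 0.67 in conventional extraction and 0.44 and 0.67 in the 1st step. The 8 control libraries gave 0.11 to 0.24 FPKM. The 4 stressed preparations overlapped only between conventional extraction and the 1st step. The region also takes in all or part of CNPPD1, a coding gene on the same strand.

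FGF22, a fibroblast growth factor, differed from most members in the readily extractable preparations. Its 30-kb DoG, chr19:644374-674373 on the plus strand, stood at 2.51 and 2.33 FPKM in the 2nd step, 1.36 and 1.19 in hiAGPC, 1.28 and 1.26 in the 1st step and 0.90 and 0.96 in conventional extraction, with 0.01 to 0.02 FPKM in every control library. Here hiAGPC overlapped the 1st step, and the hiAGPC level was only 0.41 ± 0.09 (SE) higher than conventional on the log2 scale (limma adjusted p = 0.00081), which was short of the fold required for a call. BAIAP2, a scaffold protein of the actin cytoskeleton, showed the more usual order, with 2.17 and 2.20 FPKM in the 2nd step, 1.12 and 1.09 in hiAGPC, 0.37 and 0.46 in the 1st step and 0.32 and 0.29 in conventional extraction. No stressed preparation of BAIAP2 overlapped another.

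CPSF1, the largest subunit of the factor that recognises the polyadenylation signal, also had a listed DoG. Its region overlaps the coding gene FBXL6 on the same strand, and that of DUSP8 overlaps MOB2. The CPSF1 DoG measured 2.38 and 1.94 FPKM in the 2nd step, 1.25 and 1.19 in hiAGPC and 0.30 and 0.29 in conventional extraction, beside 0.02 to 0.10 FPKM in the control libraries. DUSP8, a phosphatase of MAP kinases, reached 2.23 and 2.17, 1.17 and 1.02, and 0.18 and 0.18 FPKM in these preparations, and 0.57 and 0.63 FPKM in the 2nd step of control cells. CDC27, a subunit of the anaphase-promoting complex, was already at 1.04 and 1.09 FPKM in the 2nd step of control cells and at 2.23 and 2.10 FPKM after stress. The high level of CDC27 in control cells did not put it in any control list, and its region was 15 kb in one stressed replicate and 135 kb in the other.

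ARID1B encodes a DNA-binding subunit of the SWI/SNF chromatin remodelling complex. Its DoG covered chr6:157210780-157280779 in replicate 1 and reached position 157315779 in replicate 2, which is 70 and 105 kb. It stood at 0.95 and 1.01 FPKM in the 2nd step, 0.50 and 0.52 in hiAGPC, 0.13 and 0.10 in the 1st step and 0.11 and 0.09 in conventional extraction, and at 0.04 to 0.08 FPKM over the control libraries. The 1st step and conventional extraction overlapped, and both hiAGPC values were above them and below the 2nd step. No annotated gene on the same strand lay in the shorter region.

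**Figure D4:**
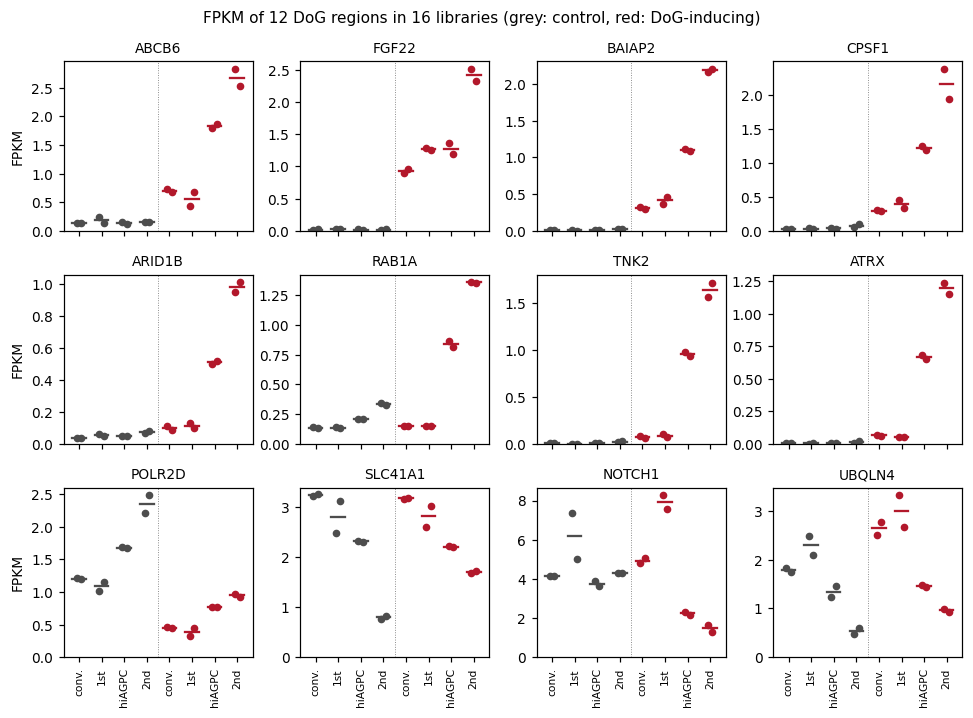
Each panel shows the FPKM of 1 DoG region in the 16 libraries (points, 2 replicates per preparation; short lines, their mean), with control libraries in grey on the left and DoG-inducing libraries in red on the right. In the upper 2 rows the 2nd step under DoG-inducing conditions is highest, as for BAIAP2 at 2.17 and 2.20 FPKM, whereas in SLC41A1, NOTCH1 and UBQLN4 conventional extraction lies above it.

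The comparison of hiAGPC with conventional extraction asks whether a transcript is semi-extractable in whole-cell RNA. Its log2 difference uses the levels of no 2nd-step library, but the spread behind its SE and p was pooled over all 16 libraries. The regions over which levels were measured were the longest listed in any library, as in ARID1B and RAB1A those of the 2nd step. The comparison is thus not free of 2nd-step signal. It was fitted with limma over all 3139 DoGs, and a call needed an adjusted p below 0.05 and a difference of at least 1 on the log2(FPKM + 0.1) scale. The rule set the same limit on the lists of both preparations, but 202 members were listed in 1 hiAGPC library and 0 in a conventional library, so the counts of calls over the members are not independent of how these were chosen. Under DoG-inducing conditions 556 of the 656 members (84.8%) were called higher in hiAGPC and 1 lower, beside 68.8% and 0.478% of all DoGs. The members' median difference was 1.53, against 1.40 over all DoGs and 1.71 over the DoGs reproducible also in hiAGPC, of which 83.3% were called higher. Since the median of all DoGs was itself shifted, centring each library on its median left 6 members called higher and 32 lower. Relative to that common shift, few members stood out in either direction.

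The 5 widest differences were those of ENSG00000267484, MMEL1-AS1, TNK2, ACADS and SSC5D. ENSG00000267484, a lncRNA gene of 0.576 kb, rose from 0.02 and 0.02 FPKM in conventional extraction to 0.75 and 0.65 FPKM in hiAGPC, by 2.73 ± 0.09 (SE) on the log2 scale with a limma adjusted p of 7.3e-11. For TNK2, a non-receptor tyrosine kinase, the values were 0.08 and 0.06 against 0.98 and 0.94 FPKM, and 2.64 ± 0.10 (adjusted p = 1.7e-10). MMEL1-AS1, an antisense lncRNA, stood at 0.01 and 0.01 FPKM in conventional extraction and at 0.62 and 0.56 FPKM in hiAGPC. In ACADS, a mitochondrial enzyme of fatty acid oxidation, and SSC5D, a scavenger receptor, the differences were 2.52 and 2.50. In all 5 DoGs both hiAGPC values lay above both conventional values, and these conventional levels were at most 0.10 FPKM. For ARID1B the difference was 1.61 ± 0.08 (limma adjusted p = 2.1e-09). With each library centred on its median the ARID1B difference was 0.17 (adjusted p = 0.081) and was no longer called.

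At the other end of the range the order of the preparations was inverted. NOTCH1, a transmembrane receptor of cell-fate signalling, was the only member called lower in hiAGPC, by -1.09 ± 0.15 (SE, limma adjusted p = 1.5e-05). It stood at 4.79 and 5.04 FPKM in conventional extraction, 8.30 and 7.57 in the 1st step, 2.33 and 2.17 in hiAGPC and 1.64 and 1.29 in the 2nd step. EHBP1L1, an adaptor of endosomal transport, and UBQLN4, a proteasomal shuttle factor, had differences of -0.85 and -0.82, which did not reach the fold for a call. UBQLN4 measured 2.51 and 2.78 FPKM in conventional extraction and 0.99 and 0.93 FPKM in the 2nd step. In each of these 3 DoGs the libraries of readily extractable RNA were the highest and did not overlap hiAGPC.

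The region behind the FPKM value covered a further protein-coding gene on the same strand, in whole or in part, in 87 of the 656 members. It did so in 11 of the 15 members whose difference between hiAGPC and conventional extraction was below 0, and in 76 of the other 641 (11.9%). In NOTCH1 this gene was SEC16A, in EHBP1L1 PCNX3 and in UBQLN4 SSR2, and in SLC41A1, a magnesium transporter, the 331.5-kb region of replicate 2 covered 4 coding genes. All 9 members with a conventional mean of at least 1 FPKM under DoG-inducing conditions had such a gene wholly or partly inside the region. Of the 569 members without one, 497 were called higher in hiAGPC and 0 lower. NOTCH1, the only member called lower, was among the 87, so the 0 was fixed by the division. Beside these counts stand 68.8% and 0.478% of all DoGs, which were not divided in this way. The median level of the 569 was 0.09 FPKM in conventional extraction and 0.82 FPKM in the 2nd step, against 0.18 and 1.05 FPKM in the 87. The 87 also hold members whose covered gene is a joint locus with the member itself, such as JMJD7-PLA2G4B and BCL2L2-PABPN1. Fragments of a covered gene's own transcripts and readthrough into it cannot be told apart in these values. The same limit holds for CPSF1, DUSP8, TNK2, SRSF4, DDX56, USP7, CUL9 and ZNF335, whose regions each covered such a gene. This division was made after the values were seen.

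Under control conditions the same comparison gave little. No member was called in either direction, beside 1.08% of all DoGs called higher, and the members' median difference was 0.05. By limma, 96 of the 656 members had an unadjusted p under 0.05, beside 801 of all 3139 DoGs. In the same fit the interaction, that is the difference between hiAGPC and conventional extraction under DoG-inducing conditions minus that under control conditions, was called for 534 members (81.4%), towards a larger difference under stress, beside 64.0% of all DoGs. With each library centred on its median 7 members were called towards a larger and 28 towards a smaller difference. The members were chosen as unlisted in control cells, and their median control level of 0.03 FPKM lies below the added 0.1, so that a difference in control cells would hardly show on this scale and the interaction largely restates the difference under stress.

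**Figure D5:**
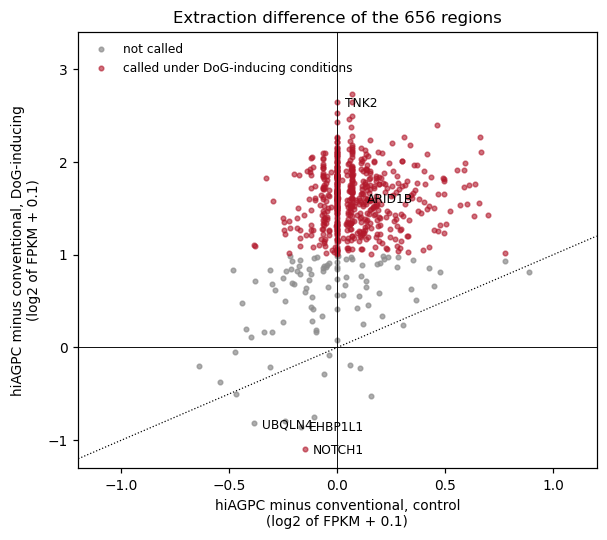
Each point is 1 of the 656 members, with the difference between hiAGPC and conventional extraction on the log2(FPKM + 0.1) scale under control conditions (horizontal) and DoG-inducing conditions (vertical); the dotted line marks equal differences. The 556 members called higher are red, far above the line, and NOTCH1 at -1.09 is the only red point below 0.

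A comparison of the 2nd with the 1st step in control cells used libraries that entered the rule only through their lists, in which no member appeared. Of the members 23 (3.51%) were called higher in the 2nd step and 14 (2.13%) lower, beside 11.0% and 3.28% of all DoGs, and the median difference was 0.12 against 0.17. With each library centred on its median these counts were 7 higher and 19 lower, so the balance of the calls depends on the scaling. All DoGs include those listed in control cells, which the rule removed from the members, so the shares of the members and of all DoGs cannot be compared directly. The 3 widest differences were those of DDX11, a helicase of sister chromatid cohesion, CLN8, a membrane protein of the endoplasmic reticulum, and FANCD2, a protein of DNA crosslink repair. DDX11 measured 0.27 and 0.29 FPKM in the 2nd step and 0.02 and 0.04 in the 1st, a difference of 1.55 ± 0.18 (SE, limma adjusted p = 1.8e-05). For CLN8 these values were 0.53 and 0.36 against 0.08 and 0.10 FPKM, and for FANCD2 0.29 and 0.43 against 0.08 and 0.06 FPKM. In these 3 DoGs the steps did not overlap, so signal over these regions was measured in the interphase of control cells although no control library listed them. The CLN8 region overlaps 2 coding genes on the same strand, KBTBD11-OT1 and ARHGEF10. Their own transcripts and readthrough into them cannot be told apart. The region of PRRT3-AS1, also a member, overlaps the FANCD2 gene on the same strand. Whether that readthrough adds to the FANCD2 values was not tested.

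Next in order was PCNT, which encodes the centrosomal scaffold pericentrin. Its 2nd-step levels were 1.29 and 1.35 FPKM in control cells and 0.90 and 0.92 FPKM in stressed cells. It was among 12 members whose mean 2nd-step level in control cells was at or above that in stressed cells, a group that also held POLR2D, a subunit of RNA polymerase II, at 2.21 and 2.49 FPKM in control cells and 0.97 and 0.93 in stressed cells. In 10 of these 12 the region covered a further coding gene. Both stressed 2nd-step values were above both control values in 644 members (98.2%), beside 80.8% of all DoGs, which follows from the rule. In 455 members (69.4%) the mean 2nd-step level in control cells was at most 0.10 FPKM, and 36 members were listed at 0 in all 8 control libraries.

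Members lower in the 2nd step of control cells included UBQLN4, MUC1, a membrane mucin, and SLC41A1, at -1.93, -1.86 and -1.69 against the 1st step. These 3, with HASPIN, ACTR8 and RC3H2, were also the 6 members called lower in the 2nd step than in hiAGPC under control conditions, beside 1.47% of all DoGs. None was called higher in that comparison, beside 0.860% of all DoGs. By limma 178 of the 656 members had an unadjusted p under 0.05 in either direction, beside 1166 of all 3139 DoGs. SLC41A1 showed the pattern most fully, with 3.21 and 3.25 FPKM in conventional extraction, 2.32 and 2.29 in hiAGPC and 0.76 and 0.83 in the 2nd step of control cells. In stressed cells it stood at 3.16 and 3.17, 2.21 and 2.19, and 1.68 and 1.72 FPKM.

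The 1st step and conventional extraction are both aqueous phases, and under DoG-inducing conditions no member was called between them, beside 0% of all DoGs. By limma 177 of the 656 members had an unadjusted p under 0.05, beside 933 of all 3139 DoGs. The members' differences ran from -0.77 to 0.79 with a median of 0.06. No difference between these preparations was detectable at the fold required.

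By function the members were spread over many groups, and 190 of them fell into at least 1 of 15 lists of gene symbols examined. The lists were matched by symbol, so they hold some genes of other function and miss members named otherwise. As shares of the DoGs with FPKM values, members were most frequent among genes with SLC symbols, mostly solute carriers (15 of 48, 31.2%), and chromatin regulators (18 of 59, 30.5%) and least among genes of DNA repair (4 of 56, 7.14%), translation (7 of 82, 8.54%) and mitochondria (6 of 67, 8.96%), beside 656 of 3139 (20.9%) over all. These shares are counts without a test. The counts of calls per list that follow are to be read beside the 68.8% of all DoGs and the 84.8% of all members called higher in hiAGPC, and no list is set apart by them.

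The 18 members on the list of chromatin symbols included ATRX, ARID1B, BRPF3, a scaffold of histone acetyltransferase complexes, ASXL1, a partner of a histone H2A deubiquitinase, and the SET-domain proteins KMT2E and SETD3. Under DoG-inducing conditions 16 of the 18 were called higher in hiAGPC than in conventional extraction and 0 lower, beside 68.8% of all DoGs, with a median difference of 1.42 beside 1.53 over all members. ATRX had 1.24 and 1.15 FPKM in the 2nd step, 0.68 and 0.65 in hiAGPC and 0.07 and 0.06 in conventional extraction, and ASXL1 1.02 and 1.04, 0.46 and 0.42, and 0.08 and 0.08 FPKM. In both genes no preparation overlapped another among these 3.

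The 8 members on the list of transcription and 3′ end symbols included CPSF1, SUPT6H, POLR2D, SUPT4H1, CCNK and PABPN1, and also ZC3H12D by its symbol. Of the 8, 6 were called higher in hiAGPC, which is near the share of all DoGs. SUPT6H, a histone chaperone of elongating polymerase, rose from 0.04 and 0.06 FPKM in conventional extraction to 0.59 and 0.65 in hiAGPC, and stood at 1.43 and 1.45 FPKM in the 2nd step. Of 15 members on the list of splicing factors and RNA helicases, which holds DDX11 by its symbol, 14 were called higher. The splicing factor SRSF4 stood at 0.16 and 0.16, 0.77 and 0.78, and 1.16 and 1.05 FPKM in these preparations. The RNA helicase DDX56 measured 0.36 and 0.37, 0.90 and 0.89, and 1.85 and 1.73 FPKM. None of the members on either list was called lower.

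Of 21 members on the list of ubiquitin and proteasome symbols 16 were called higher in hiAGPC, and their median difference was 1.60. This list holds PSMC3IP, which is no proteasome subunit, and leaves out OTUB1, CDC27 and UBQLN4, whose difference was -0.82. The ubiquitin ligase UBR4 was listed over 115 kb in both 2nd-step replicates, and over 10.0 kb in 1 hiAGPC replicate, with 1.40 and 1.47 FPKM, 0.71 and 0.65 FPKM in hiAGPC and 0.05 and 0.05 FPKM in conventional extraction. The deubiquitinase USP7 measured 1.57 and 1.65, 1.11 and 1.09, and 0.36 and 0.38 FPKM. The cullin CUL9 was at 0 to 0.01 FPKM in control cells and at 1.44 and 1.52 FPKM in the stressed 2nd step.

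Trafficking genes gave 16 members, of which 13 were called higher in hiAGPC, including RAB1A and SEC31A, a coat protein of vesicles leaving the endoplasmic reticulum. RAB1A stood at 0.15 and 0.15 FPKM in conventional extraction, 0.86 and 0.81 in hiAGPC and 1.36 and 1.35 in the 2nd step. GBF1, an exchange factor of Golgi GTPases, had 0.70 and 0.77 FPKM in conventional extraction and 0.89 and 0.78 FPKM in hiAGPC, a difference of 0.16 ± 0.13 (limma adjusted p = 0.25). The GBF1 region overlaps the coding gene NFKB2 on the same strand, and transcripts of that gene and readthrough into it cannot be told apart.

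The 18 members with ZNF, ZBTB or ZSCAN symbols were each called higher in hiAGPC. This list leaves out zinc-finger genes of other names, such as SALL1 and PRDM13, and holds ZBTB8OS, which is named for its neighbour. Its highest members in the 2nd step were ZNF335, ZNF787 and ZNF646, at 0.82 to 1.29 FPKM. Of 19 members with kinase or phosphatase symbols, among them the antisense gene CDK5R2-AS1, 15 were called higher, including the receptor phosphatase PTPRS, which was listed at 0 in all 8 control libraries and reached 1.29 and 1.40 FPKM in the stressed 2nd step. Of the 15 with SLC symbols, of which SLC6A17-AS1 and SLC25A5-AS1 are antisense lncRNA genes, 11 were called higher, a share near that of all DoGs. SLC16A11, a monocarboxylate transporter, was at 0.16 and 0.12 FPKM in conventional extraction, 1.17 and 1.15 in hiAGPC and 1.88 and 1.90 in the 2nd step. SLC2A1, the widely expressed glucose transporter, was at 0.43 and 0.37, 0.85 and 0.78, and 1.03 and 0.95 FPKM, so the relative step from hiAGPC to the 2nd step was small.

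Of 10 DoGs of osmotic-response genes 1 was a member, SLC12A2, the sodium-potassium-chloride cotransporter through which cells regain volume after shrinkage. Its DoG had 0.83 and 0.95 FPKM in the 2nd step, 0.62 and 0.56 in hiAGPC and 0.17 and 0.10 in conventional extraction, with 0.07 to 0.10 FPKM in control cells. Its regions of 55 and 40 kb in the 2nd step compare with 40.0 kb in the 1 hiAGPC replicate that listed it. Of 14 members with cytoskeleton symbols 12 were called higher in hiAGPC, and of 7 with translation symbols 6. Of 6 with mitochondrial symbols 4 were called higher, and of 4 with DNA repair symbols, ERCC6L2-AS1 included, 3. In these lists 0 were called lower, and 68.8% of all DoGs were called higher. The initiation factor subunit EIF3B, the eIF4E-binding protein EIF4EBP2 and the tyrosyl-tRNA synthetase YARS1 had 2nd-step levels of 0.82 to 1.79 FPKM. Of the 30 antisense lncRNAs 28, and of 7 divergent lncRNAs 5, were called higher, with median differences of 1.72 and 1.37.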

How the data were processed

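RNA-seq of 16 HEK293 libraries was used. Per the study's methods and the submitters' processing notes, the authors trimmed reads with fastp 0.25.0, removed rDNA reads with Bowtie2 2.5.4, aligned uniquely to GRCh38 with STAR 2.7.11b and called DoGs per library with ARTDeco. The authors deposited a region list per library and 1 table of FPKM values per DoG, rounded to 2 decimals. Neither holds counts, and the paper gives only a nominal range of depth, so the depth of each library is unknown. By the paper, 2nd-step libraries were made from less RNA than 1st-step libraries. All per-sample columns were mapped to labels (0 unused). The members and gene lists were chosen with earlier results of these data known. Replicates are biological by the labels, with 2 per group. Regions were joined to GENCODE v44 by gene ID, an earlier release than the authors used, with each gene end taken from the listed region. Sequences came from GRCh38.

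FPKM was analysed as log2(FPKM + 0.1) with limma 3.58.1 in R 4.3.3 (8 group means, intensity trend, Benjamini-Hochberg over 3139 DoGs); a call needed an adjusted p below 0.05 and a log2 difference of at least 1. Gene lists were matched by symbol. With 2 against 2 samples an exact permutation test cannot reach 0.05, so none was used. On data simulated for hiAGPC against conventional extraction under DoG-inducing conditions, limma recovered 192 of 200 changed DoGs and called 0 of 2939 others. The planted changes were all larger than the fold required for a call, and the other DoGs were set equal between the groups. Recovery of changes near that fold was therefore not examined. In the measured data 68.8% of all DoGs were called higher in that comparison. How limma performs under a shift shared by most DoGs was not tested. Uniquely mapped reads leave out repeats, and a rounded value near 0.01 carries little precision. The genes named were the 8 highest and 8 longest members, the extremes of both main comparisons, up to 3 of the highest per list, ARID1B and genes at the edge of the rule; others were named after their values were seen.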

Additional observations from a re-analysis of the deposited data

Results flagged for a closer look

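The difference between hiAGPC and conventional extraction differed between the conditions in 6 of the DoGs described above, by limma's interaction term (the difference under DoG-inducing conditions minus that under control conditions, log2(FPKM + 0.1) scale). It was 2.67 for ENSG00000267484 (SE 0.12, adjusted p = 5e-09), 2.58 for MMEL1-AS1 (SE 0.18, adjusted p = 7.6e-08), 2.64 for TNK2 (SE 0.14, adjusted p = 9.5e-09), 2.52 for ACADS (SE 0.13, adjusted p = 7.3e-09), 2.43 for SSC5D (SE 0.15, adjusted p = 2.7e-08) and 1.51 for ARID1B (SE 0.12, adjusted p = 1.9e-07). These values are not independent of the choice of genes, 5 of which were taken for their wide differences under stress. In control cells their differences lay between 0 and 0.10, and all values there were at most 0.08 FPKM, under the added 0.1, so the interaction largely restates the difference under stress. NOTCH1, EHBP1L1 and UBQLN4 had interactions of -0.95, -0.69 and -0.43, none past the fold for a call.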

How the results depend on the processing

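Adding 1 to FPKM in place of 0.1 left 0 members called higher in hiAGPC under DoG-inducing conditions, 0 in the 2nd against the 1st step and 0 for the interaction, since most levels are below 1 FPKM. Centring each library on its median left 6, 7 and 7 higher, and 32, 19 and 28 lower. With 0.01 added, 132 members were called higher in the 2nd than the 1st step under control conditions, 21 in hiAGPC against conventional, 34 in the 2nd step against hiAGPC, and 10 between the 1st step and conventional under stress. By adjusted p alone these 4 counts were 168, 32, 90 and 40. Leaving out 1 library at a time gave 549 to 560, 21 to 27, 0 to 1, 0 to 2, 0 to 3 and 524 to 539 calls in the order of the 6 tested comparisons (hiAGPC against conventional under stress; 2nd against 1st step, hiAGPC against conventional and 2nd step against hiAGPC in control cells; 1st step against conventional; interaction). With a replicate block the first count was again 556 and the second 23; the replicate numbers were not shown to pair samples, as deviations of same-numbered samples correlated between -0.073 and 0.023. The block changed no count by over 1.5 times. Leaving out 1st-step replicate 1 kept 18 of the 23 calls, and leaving out replicate 2 also 18.

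Membership from a single replicate of every group gave 758 to 845 members with median lengths of 15.0 to 20.0 kb. A minimum length of 20 kb raised the median length to 42.5 kb. Requiring an overlap of 1000 bp lowered the share of members overlapping another gene to 18.1%, and counting any overlap in either replicate raised the share lying in an upstream region to 3.51%. Of the alternatives for single DoGs, 129 left direction and call as they were, 11 lost the call and 4 gained it, and none turned the direction. The 87 regions that cover all or part of a further coding gene were set apart after the data were seen. The FPKM values cannot separate the transcripts there.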
